A study of Mus musculus with 10 samples.

Results

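Oxidative phosphorylation (OXPHOS) genes were examined in the RNA of osteocytes from myeloma-free and myeloma-bearing mice, with the genes of the cell nucleus set beside those of the mitochondrial genome. Members were the protein-coding genes whose symbols start with Nduf, Uqcr, Atp5 or Cox4 to Cox8, the 4 Sdh genes, and the protein-coding genes of mitochondrial DNA, whose symbols start with mt-. This gave 104 of the 22548 genes in the deposited table, 91 of them nuclear and 13 mitochondrially encoded. All mice were male C57BL/6 of 8 weeks with no engineered allele named. The MM group consisted of 5 mice that had received vk12598 murine myeloma cells into the femur, with osteocytes isolated at week 6. The No MM group consisted of 5 mice without myeloma cells. For its mouse myeloma model, the paper's methods describe controls injected with the same volume of PBS. Bone pieces freed of marrow were digested in turns with collagenase and EDTA, so the RNA came from an enriched fraction that was not sorted. One library per mouse was sequenced, and between 31099174 and 39466332 counts fell on genes.

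The respiratory chain passes electrons from complexes I and II through complex III to complex IV, which reduces oxygen, and complex V uses the resulting proton gradient to make ATP. Most subunits are encoded in the nucleus and imported, while mitochondrial DNA encodes a small core set for complexes I, III, IV and V and none for complex II. The mitochondrial genes are transcribed as long RNAs from both strands and cut into single messengers, so transcripts of the same strand start out together. Skeletal muscle is rich in mitochondria and replaces several complex IV subunits by muscle isoforms.

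Cells other than osteocytes contributed to these libraries. All 8 osteocyte markers, including Sost and Dmp1, were measured, and they summed to between 370.4 and 2536 CPM, the counts of a gene scaled by TMM to a common library size. The 7 osteoblast markers summed to between 1782 and 47260 CPM, the 10 neutrophil markers to between 7465 and 34230 CPM, and the 12 skeletal muscle markers to between 820.5 and 9044 CPM. The libraries No MM 3 and No MM 4 stood apart, with 26.6% and 29.0% of their counts on immunoglobulin genes against 0.637% to 3.86% in the other 8 libraries. Counts of members, and values that moved with these libraries, are therefore also given without them. In bulk RNA, fewer cells of a type and less RNA per cell cannot be told apart.

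Promoter sequences are shown for 3 complex IV genes, a ubiquitous and a muscle isoform of subunit 8 and the ubiquitous form of subunit 6a, whose levels by library are compared below. RefSeq (GRCm38.p6) gave a promoter for 76 of the 91 nuclear members, from 250 bases before to 50 bases after the transcription start, and both strands were searched. The core letters of the NRF1 motif, CGCATGCG, were found in 10 of the 76 (13.2%) and in 1.91% of 27025 promoters of all genes. The ETS motif CCGGAAG, which the GABP factor binds, was found in 16 (21.1%) against 9.12% of all promoters. The YY1 motif AAGATGG was found in 11 (14.5%) against 6.48%. The TATA box letters TATAAA were found in 7 (9.21%) against 14.2%, and in 2 of the 4 tissue-restricted isoforms with an entry. The searched motifs do not overlap each other in the sequences shown, and a match describes letters and not a bound site. The next sequences run from 250 bases before to 30 bases after the start, 5′ to 3′ on the minus strand, with motif matches in capitals (CTTCCGG is the ETS motif read from the other strand). Cox8a is at chr19:7217587-7217866, Cox8b at chr7:140900417-140900696 and Cox6a1 at chr5:115348929-115349208.
Cox8a: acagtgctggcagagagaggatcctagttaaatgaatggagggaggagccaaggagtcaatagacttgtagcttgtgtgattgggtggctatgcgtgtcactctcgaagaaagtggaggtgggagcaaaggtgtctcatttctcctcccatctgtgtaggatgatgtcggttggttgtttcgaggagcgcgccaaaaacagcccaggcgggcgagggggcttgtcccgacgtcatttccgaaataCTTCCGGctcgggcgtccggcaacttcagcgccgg
Cox8b: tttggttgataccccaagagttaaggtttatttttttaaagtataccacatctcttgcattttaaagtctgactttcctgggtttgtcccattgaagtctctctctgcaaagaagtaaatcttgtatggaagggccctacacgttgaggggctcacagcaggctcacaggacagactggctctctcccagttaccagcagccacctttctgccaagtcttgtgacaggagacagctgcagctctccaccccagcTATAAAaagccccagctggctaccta
Cox6a1: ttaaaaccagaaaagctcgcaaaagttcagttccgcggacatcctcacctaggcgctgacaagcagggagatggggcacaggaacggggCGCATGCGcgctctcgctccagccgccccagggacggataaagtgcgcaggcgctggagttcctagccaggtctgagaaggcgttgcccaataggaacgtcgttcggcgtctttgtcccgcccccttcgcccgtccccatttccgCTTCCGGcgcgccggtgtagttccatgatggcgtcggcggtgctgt
Cox8a and Cox6a1 carried ETS letters, Cox6a1 also the NRF1 core, and Cox8b carried TATA letters. Those of Cox8b lie after the annotated start and not before it. This did not divide ubiquitous from muscle genes in general, since Cox7a1 and Cox7a2 had none of the 4 motifs in their windows, ubiquitous Cox5a, Cox5b and Cox7b had none either, and TATA letters were also found for Atp5l, Ndufa3, Ndufa7, Ndufb7 and Ndufs7.

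For mitochondrially encoded genes, copies of mitochondrial DNA in nuclear chromosomes limit which reads can be assigned to them. The stretches below have the length of 1 read, 76 bases, and are shown to compare a copy that is the same with one that differs, with differing bases in capitals. They are taken from GENCODE M21 transcripts (GRCm38). mt-Co2, encoding subunit 2 of complex IV, is shown at chrMT:7313-7388 on the plus strand, and the pseudogene Gm28661 at chr1:24615190-24615265 on the minus strand. mt-Co1, encoding subunit 1 of complex IV, is shown at chrMT:5339-5414 on the plus strand, and the pseudogene Gm13340 at chr2:22589561-22589636 on the minus strand.
mt-Co2: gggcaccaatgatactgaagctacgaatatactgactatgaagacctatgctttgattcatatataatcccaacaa
Gm28661: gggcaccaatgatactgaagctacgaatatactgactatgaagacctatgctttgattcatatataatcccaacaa
mt-Co1: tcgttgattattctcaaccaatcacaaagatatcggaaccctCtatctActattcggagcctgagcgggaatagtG
Gm13340: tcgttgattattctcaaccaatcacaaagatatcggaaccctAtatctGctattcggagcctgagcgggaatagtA
Over the whole copy, Gm28661 matched mt-Co2 at 681 of 681 bases and Gm28437 matched mt-Co3 at 783 of 783. Gm13340 matched mt-Co1 at 1508 of 1545 bases (97.6%), with 3 of the 37 differences in the stretch shown.

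The 13 mitochondrially encoded genes fell into a high and a low set. Their levels per transcript length, as mean CPM per kb over the 10 libraries, were 7487 for mt-Co1, 5207 for mt-Cytb (the complex III subunit cytochrome b), 4144 for mt-Nd1, 2405 for mt-Nd2, 1628 for mt-Nd4 and 982 for mt-Nd5, the last 4 being complex I subunits. In contrast, mt-Co2 had 38.1 CPM per kb, mt-Co3 31.8, mt-Atp6 21.5, mt-Nd6 16.2, mt-Nd3 13.8, mt-Atp8 2.40 and mt-Nd4l 2.13. The low set held both complex V genes, mt-Atp6 and mt-Atp8, together with genes of complexes I and IV. mt-Co1 and mt-Co2, neighbors on the same strand, thus differed far beyond the spread between libraries, since the lowest library had 3436 CPM per kb of mt-Co1 and the highest library had 55.0 CPM per kb of mt-Co2. The neighboring levels of mt-Co2 and mt-Co3 overlapped between libraries, as did those of mt-Atp8 and mt-Nd4l.

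Most low genes shared their sequence with other annotated genes. The share of 76-base windows that also occur in another gene's transcript was 99.9% for mt-Co3, 99.5% for mt-Co2, 99.5% for mt-Atp6, 98.6% for mt-Nd4l and 97.8% for mt-Nd3. It was 61.5% for mt-Nd4, 39.4% for mt-Co1, 5.61% for mt-Nd2, 1.54% for mt-Nd5 and 0% for mt-Nd1 and mt-Cytb. The genes mt-Atp8 and mt-Nd6 were low with 0% of windows in annotated transcripts. Sequence outside annotated transcripts was not searched, and mt-Nd6 lies on the strand opposite to the other 12. The 7 copies on chromosome 1, within 24611535 to 24616197, had a sum of 2083 to 7118 counts per library, and mt-Co1 had 139364 to 691062. For the low genes with shared windows, the counts of the copy overlapped those of the gene. Gm28661 had 418 to 1413 counts per library and mt-Co2 376 to 1454, Gm28437 801 to 1761 and mt-Co3 566 to 1335. Gm10925 had 282 to 1445 and mt-Atp6 172 to 756, Gm28438 54 to 143 and mt-Nd3 107 to 276. Gm10222 had 4 to 58 and mt-Nd4l 5 to 43. The part of read assignment in the low levels was not tested.

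**Figure D1:**
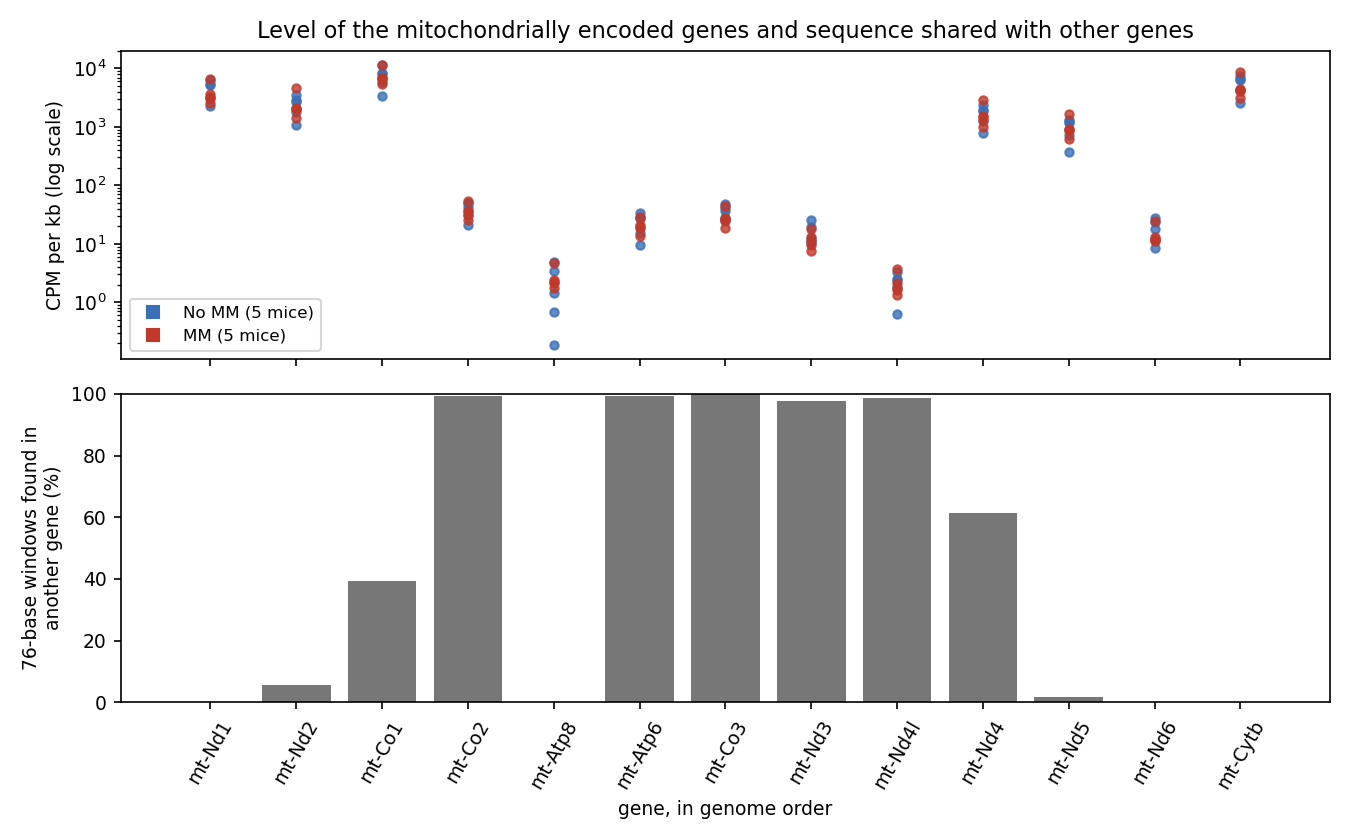
Upper panel, CPM per kb on a log scale for each mitochondrially encoded gene in genome order, 1 point per library (blue No MM, red MM). Lower panel, share of 76-base windows of the gene found in another gene's transcript, in percent. 6 genes had means from 982 to 7487 CPM per kb and 7 had means from 2.13 to 38.1.

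Nuclear and mitochondrially encoded genes took different shares of the libraries. The nuclear members held 1.58%, 1.25%, 0.957%, 0.824% and 1.01% of counts in No MM 1 to 5 and 1.15%, 1.02%, 1.05%, 1.01% and 0.920% in MM 6 to 10. The mitochondrially encoded members held 1.12%, 4.26%, 2.57%, 2.40% and 2.46% in No MM and 5.21%, 2.76%, 2.06%, 2.89% and 2.66% in MM. No MM 1 therefore had the highest nuclear and the lowest mitochondrial share of all libraries, and both shares overlapped between the groups. The nuclear share was 1.12% ± 0.298 (SD, n = 5) in No MM and 1.03% ± 0.0815 in MM, and the mitochondrial share was 2.56% ± 1.12 and 3.12% ± 1.21. The difference in nuclear share, MM minus No MM, was −0.0938 percentage points in all libraries, −0.249 without No MM 3 and No MM 4, and 0.0203 without No MM 1. As a share of protein-coding counts without immunoglobulin genes, the nuclear members held 1.31% ± 0.225 in No MM and 1.06% ± 0.0823 in MM. The difference in mitochondrial share was 0.556 percentage points, 0.147 with that denominator, 0.196 without No MM 1 and 0.0331 without MM 6. At this depth counting error was small, with a 95% Wilson interval of 1.116% to 1.123% for the mitochondrial share of No MM 1, an interval of counting error only, since reads copied by PCR were not tagged as single molecules.

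The ratio of mitochondrial to nuclear counts was 0.709, 3.41, 2.69, 2.91 and 2.44 in No MM 1 to 5 and 4.54, 2.71, 1.96, 2.86 and 2.90 in MM 6 to 10. The difference between groups in the log2 ratio, 0.42, moved with single libraries. It was 0.02 without No MM 1, 0.26 without MM 6 and 0.68 without No MM 3 and No MM 4. No test was made on these sums over members.

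**Figure D2:**
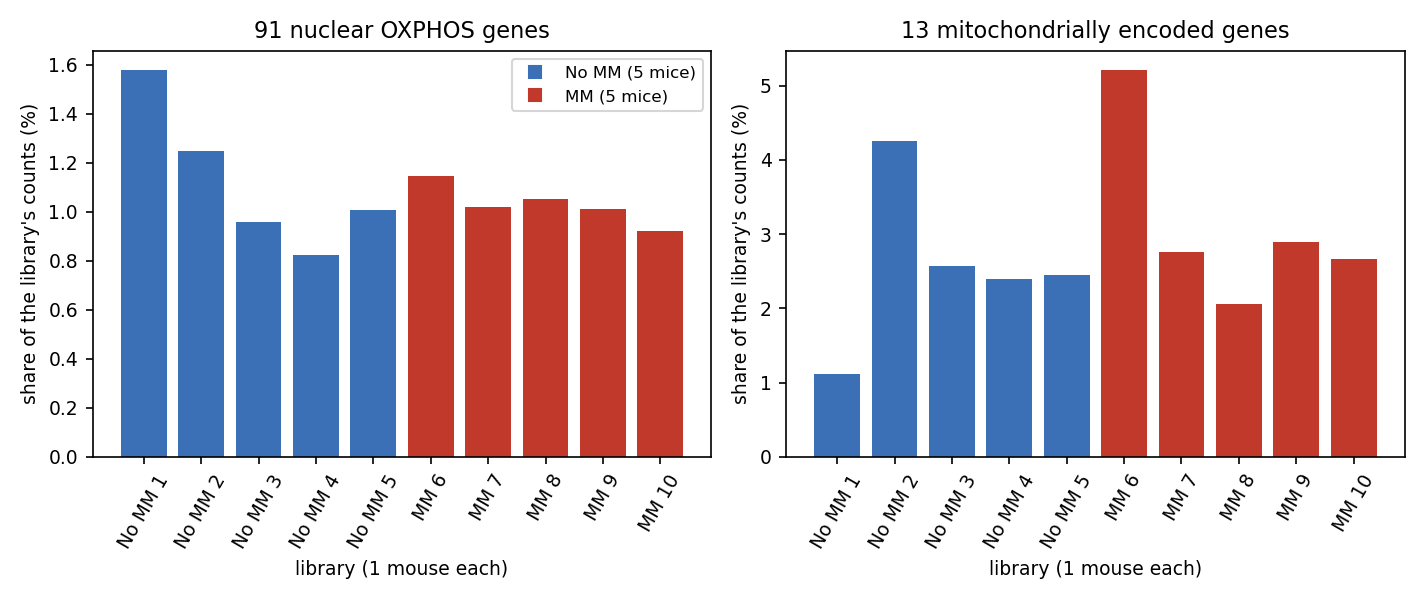
Share of each library's counts, in percent, on the 91 nuclear OXPHOS genes (left) and on the 13 mitochondrially encoded genes (right), 1 bar per mouse, blue for No MM and red for MM. No MM 1 had the highest nuclear share, 1.58%, and the lowest mitochondrial share, 1.12%, while MM 6 had the highest mitochondrial share, 5.21%.

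Relative to the TMM-scaled library, nuclear OXPHOS genes were lower on average in MM than in No MM, while mitochondrially encoded genes lay on both sides of 0. Of the 90 nuclear members tested, 88 had a log2 fold change (MM over No MM) below 0, compared with 52.7% of the 16186 genes tested, and their median was −0.46 against −0.03 for all genes. Of the 13 mitochondrially encoded members, 9 were below 0 and the median was −0.08. No member passed an adjusted p of 0.05 in edgeR's quasi-likelihood test with Benjamini-Hochberg adjustment, nor did any other gene (0%), and the smallest adjusted p among nuclear members was 0.314. At an unadjusted p under 0.05, 46 nuclear members (51.1%) were lower and 0 were higher in MM, against 10.3% and 3.81% of all tested genes. None of the 13 mitochondrially encoded members reached an unadjusted p under 0.05 in either direction in the same edgeR test. Whether the nuclear set differs from the mitochondrial set was not tested.

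The count of nuclear members depended on single mice and on scaling. It ranged from 28 without MM 10 to 59 without No MM 5, with 34 without No MM 1. The share of all tested genes lower at that p is not given for these fits or for library size alone. A change in the count therefore cannot be read as particular to OXPHOS genes. Scaled by library size alone, 4 nuclear members were lower and 1 higher, 68 of 90 were below 0, and their median of −0.11 stood beside a median of 0.30 for all genes, a distance of −0.41. This scaling moves the fold changes of all genes upward, with 23.8% of tested genes below 0, so a value between 0 and 0.30 under it is still below that of the median gene. With that scaling, 1 of the 13 mitochondrially encoded members was below 0, with a median of 0.27, and with TMM scaling 5 of the 13 were below 0 without No MM 2 or without No MM 4.

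The remaining 8 libraries, without No MM 3 and No MM 4, gave 51 lower nuclear members against 3.37% of 16600 genes, with 87 below 0 and a median of −0.54. In these 8 libraries 4 of the 13 mitochondrially encoded members were below 0, their median was 0.11, and 1 passed an unadjusted p under 0.05, higher in MM. DESeq2 called 1.17% of 17638 genes at an adjusted p under 0.05, and no member was among them. The smallest DESeq2 adjusted p of a member was 0.0518, for Ndufa1. The nuclear median log2 fold change in DESeq2 was −0.43, beside 0.01 for all genes.

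**Figure D3:**
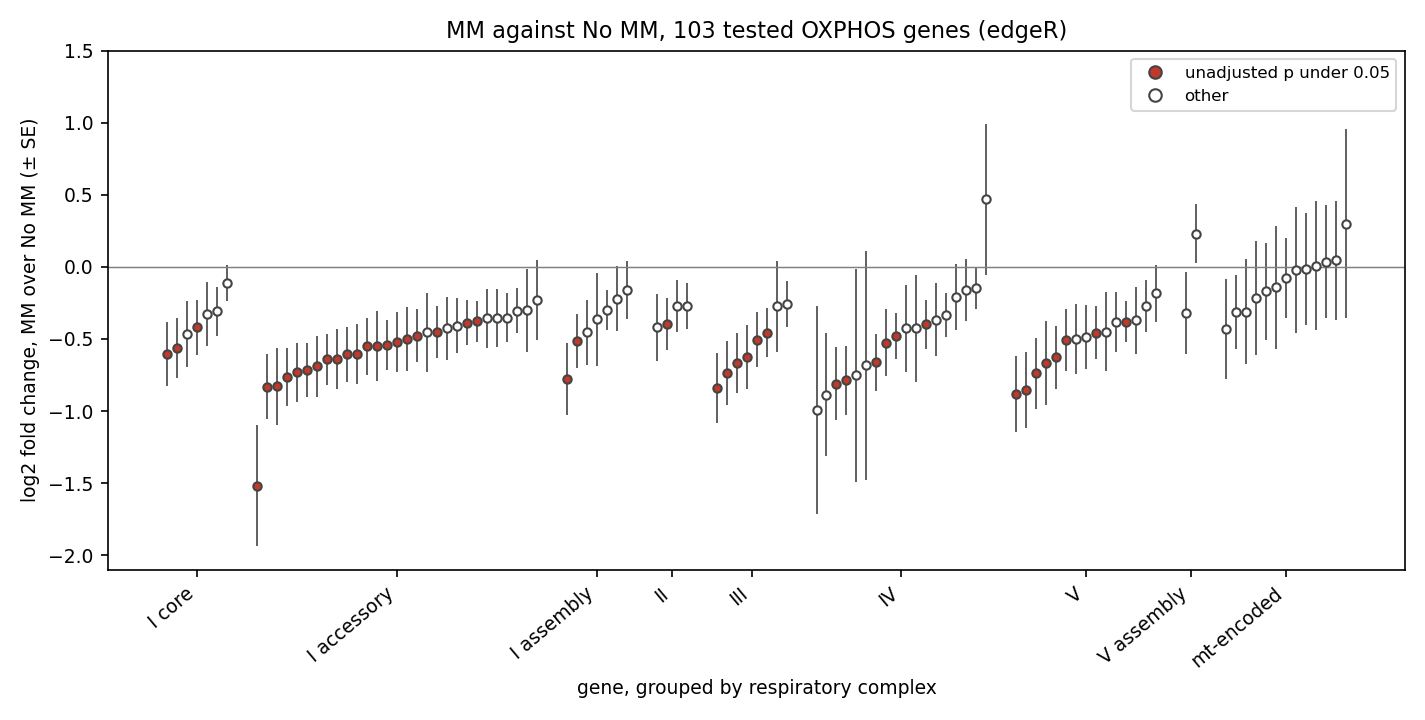
Log2 fold change, MM over No MM, of each of the 103 tested OXPHOS genes with its standard error, from edgeR on TMM-scaled counts, grouped by respiratory complex and sorted within each group, with mitochondrially encoded genes at the right. Filled points have an unadjusted p under 0.05 (46 nuclear, 0 mitochondrially encoded). No adjusted p was under 0.05. With library size alone as the scaling, 68 of 90 nuclear and 1 of 13 mitochondrially encoded genes were below 0, beside 23.8% of all tested genes.

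Levels differed between single mice in both sets, and with any 1 mouse left out 84 to 88 nuclear members were below 0. The mean log2 CPM of the 90 nuclear members was 6.99, 6.50, 6.49, 6.40 and 5.99 in No MM 1 to 5 and 6.24, 6.03, 6.01, 6.02 and 5.85 in MM 6 to 10. The first 4 No MM libraries were thus above every MM library, and No MM 5 lay inside the MM range. No MM 1 had the highest level of 73 of the 90 nuclear members, as it did for 19.8% of all tested genes, and MM 10 had the lowest level of 57, as it did for 7.70% of all tested genes. The mean log2 CPM of the 13 mitochondrially encoded members was 5.72, 7.16, 7.12, 7.14 and 6.40 in No MM and 7.38, 6.56, 6.18, 6.61 and 6.64 in MM. No MM 1 had the lowest level of 11 of these 13, as it did for 23.8% of all tested genes. MM 6 had the highest level of 8, as it did for 13.6% of all tested genes. Nuclear levels of 5.99 to 6.99 in No MM thus spread more than those of 5.85 to 6.24 in MM, with an SD of 0.357 against 0.141. No MM 1 also had the highest sums of erythroid markers, 50990 CPM against 804 to 25610 CPM in the other libraries, and of osteoclast markers, 10870 CPM against 781 to 7155 CPM, and their part in the nuclear levels was not tested.

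**Figure D4:**
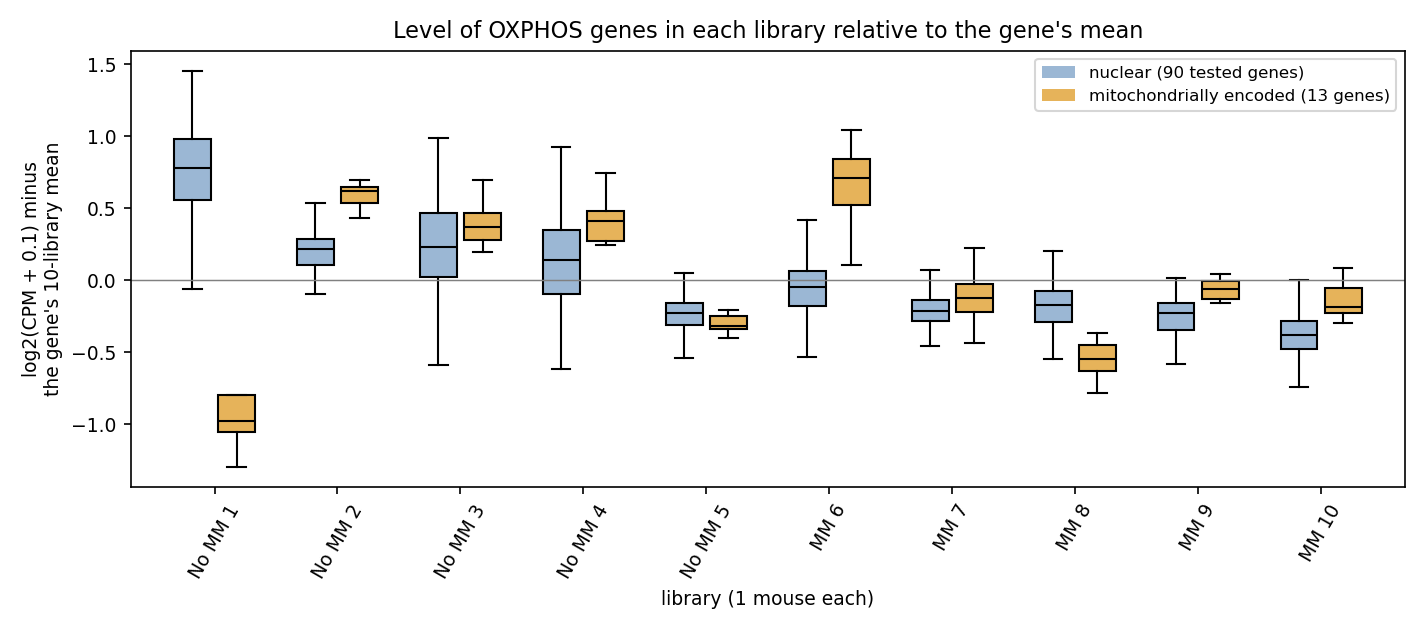
Each gene's log2(CPM + 0.1) in a library minus its mean over the 10 libraries, as box plots over genes (box, quartiles and median; whiskers, 1.5 times the box height), blue for 90 nuclear and orange for 13 mitochondrially encoded genes. In No MM 1 the sets lay on opposite sides of 0, with nuclear genes high and mitochondrially encoded genes low. In MM 6 the mitochondrially encoded genes were high.

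Complex I, NADH dehydrogenase, had the most members. Of its 29 accessory subunits, which surround the catalytic core, 29 had log2 fold changes below 0 and 20 were lower at an unadjusted p under 0.05, with a median of −0.52. Of its 7 nuclear core subunits 3 were lower, with a median of −0.42, and of its 7 assembly factors 2, with a median of −0.36. Without No MM 3 and No MM 4 the lower members were 20, 2 and 0. Of all tested genes, 10.3% were lower in all libraries and 3.37% without No MM 3 and No MM 4. Scaled by library size alone, 26 of the accessory, 5 of the core and 3 of the assembly genes were below 0, beside 23.8% of all tested genes.

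Ndufa1, an accessory subunit of the membrane arm, had the lowest log2 fold change among all members. Its level was 105, 78.6, 256, 291 and 58.0 CPM in No MM 1 to 5 and 58.1, 57.2, 60.5, 49.3 and 50.4 CPM in MM 6 to 10. No MM 3 and No MM 4 were thus far above all others, and No MM 5 lay among the MM libraries. The log2 fold change was −1.52 ± 0.42 (SE, edgeR adjusted p = 0.314) and −0.57 without No MM 3 and No MM 4. The plasma cell markers summed to 3918 and 3763 CPM in these 2 libraries and to 340 to 647 CPM in the other 8. In edgeR 7 of 7 markers tested were lower in MM at an unadjusted p under 0.05, against 10.3% of all tested genes. Without No MM 3 and No MM 4 only 1 was, against 3.37%, so the count of 7 rested on these 2 libraries. The part of plasma cell RNA in the level of Ndufa1 was not tested.

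Ndufa11, another accessory subunit of the membrane arm, had 104, 57.1, 77.3, 78.9 and 40.3 CPM in No MM and 45.3, 43.1, 36.8, 39.7 and 36.0 CPM in MM. No MM 5 alone overlapped the MM libraries. Its log2 fold change was −0.83 ± 0.23 (SE, edgeR adjusted p = 0.314) and −0.77 in the 8 libraries. Ndufb9, an accessory subunit, was abundant per length (235 CPM per kb), with 119 to 268 CPM in No MM and 106 to 128 CPM in MM, and its log2 fold change was −0.76 ± 0.20.

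At the other end, Ndufb7 and Ndufb10, accessory subunits of the membrane arm, had log2 fold changes of −0.23 ± 0.28 and −0.30 ± 0.29. Without No MM 1, at 202 CPM for Ndufb7 against 72.9 to 115 CPM in the other No MM libraries, the values were 0.12 and 0.02. With library size alone they were at 0.10 and 0.02, under the all-gene median of 0.30. Among core subunits, Ndufs8 and Ndufs3, which form part of the matrix arm, were at −0.61 ± 0.22 and −0.56 ± 0.21. Ndufs1, which holds iron-sulfur clusters, and Ndufv2, which holds another, were at −0.11 ± 0.12 and −0.31 ± 0.17, and with library size alone at 0.23 and 0.03, under the all-gene median of 0.30.

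Assembly factors build complex I and are not part of the finished enzyme. Ndufaf2 had 15.3, 14.1, 25.6, 24.6 and 11.2 CPM in No MM and 10.1, 10.9, 12.3, 9.32 and 10.2 CPM in MM. Its No MM values were highest in No MM 3 and No MM 4, and the log2 fold change was −0.78 ± 0.25, or −0.38 without them. Ndufaf1 was at −0.52 ± 0.19 and Ndufaf3 at −0.45 ± 0.23. Ndufaf5 and Ndufaf6 were at −0.22 ± 0.22 and −0.16 ± 0.20, and with library size alone at 0.10 and 0.18, again under 0.30.

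Complex II, succinate dehydrogenase, is also an enzyme of the citric acid cycle and has no mitochondrially encoded subunit. Sdha, its flavoprotein, had 362, 281, 250, 250 and 216 CPM in No MM 1 to 5 and 266, 206, 233, 216 and 205 CPM in MM 6 to 10, so the groups overlapped. The log2 fold changes were −0.27 ± 0.18 for Sdha, −0.42 ± 0.23 for the iron-sulfur subunit Sdhb, −0.40 ± 0.18 for Sdhc and −0.27 ± 0.16 for Sdhd, the last pair being membrane anchors. Only Sdhc of the 4 had an unadjusted p under 0.05, at 0.0494 (edgeR adjusted p = 0.353). Without No MM 3 and No MM 4, Sdhb, Sdhc and Sdhd did (−0.62, −0.48 and −0.43), and with the muscle marker score as a covariate 0 of the 4 did. Of all tested genes, 10.3% were lower at that p in all libraries, 3.37% without No MM 3 and No MM 4 and 6.6% with the covariate. Without No MM 1 the values were −0.15 for Sdha, −0.18 for Sdhb, −0.26 for Sdhc and −0.16 for Sdhd. Scaled by library size alone, Sdha (0.07) and Sdhd (0.05) were under the all-gene median of 0.30.

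Complex III, which passes electrons to cytochrome c, had 6 of 8 nuclear members lower at an unadjusted p under 0.05, with a median of −0.57. Without No MM 3 and No MM 4 there were also 6. Of all tested genes, 10.3% were lower in all libraries and 3.37% without No MM 3 and No MM 4. Uqcrq, a small membrane subunit, had 232, 151, 212, 165 and 92.3 CPM in No MM and 122, 92.0, 91.6, 95.6 and 74.6 CPM in MM, with No MM 5 inside the MM range. Its log2 fold change was −0.84 ± 0.24 (SE, edgeR adjusted p = 0.314), and −0.76 in the 8 libraries. Uqcr11, another small subunit, was at −0.74 ± 0.22. Uqcrh, the hinge protein and the most abundant member of this complex per length at 300 CPM per kb, was at −0.51 ± 0.19. Uqcrb was at −0.26 ± 0.16 and the core protein Uqcrc1 at −0.27 ± 0.31. Uqcrc1 had 345 CPM in No MM 1 against 101 to 194 CPM in the other No MM libraries, and its log2 fold change was 0.12 without No MM 1. With library size alone Uqcrb (0.11) and Uqcrc1 (0.05) were under the all-gene median of 0.30. The mitochondrially encoded subunit of the same complex, mt-Cytb, had 2903, 8630, 7369, 7510 and 4814 CPM in No MM and 9954, 5108, 3534, 4977 and 4772 CPM in MM. Its log2 fold change was −0.14 ± 0.43, so the direction was not resolved. With library size alone it was 0.20, also under the all-gene median of 0.30.

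Complex IV, cytochrome c oxidase, had 6 of 18 tested nuclear members lower at an unadjusted p under 0.05, with a median of −0.45. Without No MM 3 and No MM 4 there were 8. Of all tested genes, 10.3% were lower in all libraries and 3.37% without No MM 3 and No MM 4. The tested members included Ndufa4, a subunit of complex IV despite its name, and Ndufa4l2, its paralog. Cox7b2, the testis form of subunit 7b, had 0 to 9 counts per library and was not tested. Cox4i1, the main form of the regulatory subunit 4, and Cox6b1, on the outer face of the enzyme, were most abundant per length, at 434 and 389 CPM per kb. Cox6b1 had 313, 194, 306, 298 and 133 CPM in No MM and 145, 147, 166, 138 and 127 CPM in MM, and its log2 fold change was −0.79 ± 0.24. Cox4i1, with 712 CPM in No MM 1 and 239 to 414 CPM in the other No MM libraries, was at −0.43 ± 0.30. It was at −0.07 without No MM 1 and at −0.75 without No MM 3 and No MM 4. Cox6c, at 163 to 193 CPM in No MM and 146 to 204 CPM in MM, was at −0.15 ± 0.14, or 0.18 with library size alone, under the all-gene median of 0.30.

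The groups did not overlap for 2 nuclear members, with every MM library lower, as for 0.68% of all tested genes. No member had every MM library higher, as 0.729% of tested genes did. Cox7a2l, a gene named as Cox7a2-like, had 178 to 284 CPM in No MM and 141 to 175 CPM in MM. Its log2 fold change was −0.40 ± 0.17 (SE, edgeR adjusted p = 0.339), and the lowest No MM and the highest MM library differed by less than 3 CPM. The other was Atp5d, the delta subunit of complex V, named after its values were seen, with 141 to 391 CPM in No MM and 108 to 141 CPM in MM. The lowest No MM and the highest MM library of Atp5d differed by less than 1 CPM.

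For subunits 6a, 7a and 8 of complex IV, MM 6 was among the 3 highest libraries for the muscle form and not for the ubiquitous form. Cox6a2, the muscle form of subunit 6a, had 69.1, 70.1, 42.1, 22.5 and 6.35 CPM in No MM 1 to 5 and 60.5, 13.5, 8.20, 17.3 and 5.93 CPM in MM 6 to 10. Its ubiquitous paralog Cox6a1, whose promoter is shown above, had 394, 184, 300.1, 300.1 and 149 CPM in No MM and 142, 160, 158, 158 and 138 CPM in MM. MM 6 thus was among the highest for Cox6a2 and among the lowest for Cox6a1. The 12 muscle markers together had 6853, 9044, 4920, 2196 and 1061 CPM in No MM and 7948, 1139, 1233, 2583 and 820.5 CPM in MM, highest in the same 3 libraries as Cox6a2. All 12 muscle markers had log2 fold changes below 0, and 0 of 12 reached an unadjusted p under 0.05.

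No MM 1 was the highest library for all 3 ubiquitous forms and among the 3 highest for the muscle forms. Cox7a1, the muscle form of subunit 7a, had 24.4, 35.9, 13.1, 5.73 and 3.80 CPM in No MM and 32.8, 4.81, 2.98, 8.32 and 2.84 CPM in MM, and Cox7a2, its ubiquitous form, had 130 to 272 CPM in No MM and 114 to 131 CPM in MM. Cox8b, the muscle form of subunit 8 with TATA letters after the start in the sequence shown, had 32.0, 40.6, 24.1, 9.11 and 4.83 CPM in No MM. In MM it had 38.0, 6.22, 4.25, 13.7 and 3.46 CPM. Cox8a, with ETS letters, had 356 CPM in No MM 1 and 134 to 182 CPM in the other 9 libraries, and unlike Cox6a1 it was not high in No MM 3 and No MM 4. The log2 fold changes were −0.99 ± 0.72 for Cox6a2, −0.68 ± 0.79 for Cox7a1 and −0.75 ± 0.74 for Cox8b. Those of the ubiquitous forms were −0.81 ± 0.25 for Cox6a1, −0.66 ± 0.20 for Cox7a2 and −0.36 ± 0.25 for Cox8a. Without No MM 1 Cox8a was at −0.06. Without MM 6 the muscle forms were at −1.90 (Cox6a2), −1.81 (Cox7a1) and −1.68 (Cox8b), each with an unadjusted p under 0.05 in edgeR. That fit kept No MM 1 and No MM 2, which also had high muscle markers, and its share of all tested genes past that p is not given. In all libraries no muscle form passed, with edgeR p from 0.197 (Cox6a2) to 0.407 (Cox7a1). The other ends of their ranges with 1 mouse left out were −0.74 (Cox6a2), −0.20 (Cox7a1) and −0.43 (Cox8b).

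With the muscle marker score as a covariate, the muscle forms were at −0.07 (Cox6a2), 0.15 (Cox7a1) and 0.07 (Cox8b), and Cox6a1 and Cox7a2 at −0.70 and −0.55. Under this covariate 19 nuclear members were lower at an unadjusted p under 0.05, against 6.6% of all tested genes, with 84 of 90 below 0 and a median of −0.30. No further test was made of the part of muscle RNA in these values.

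**Figure D5:**
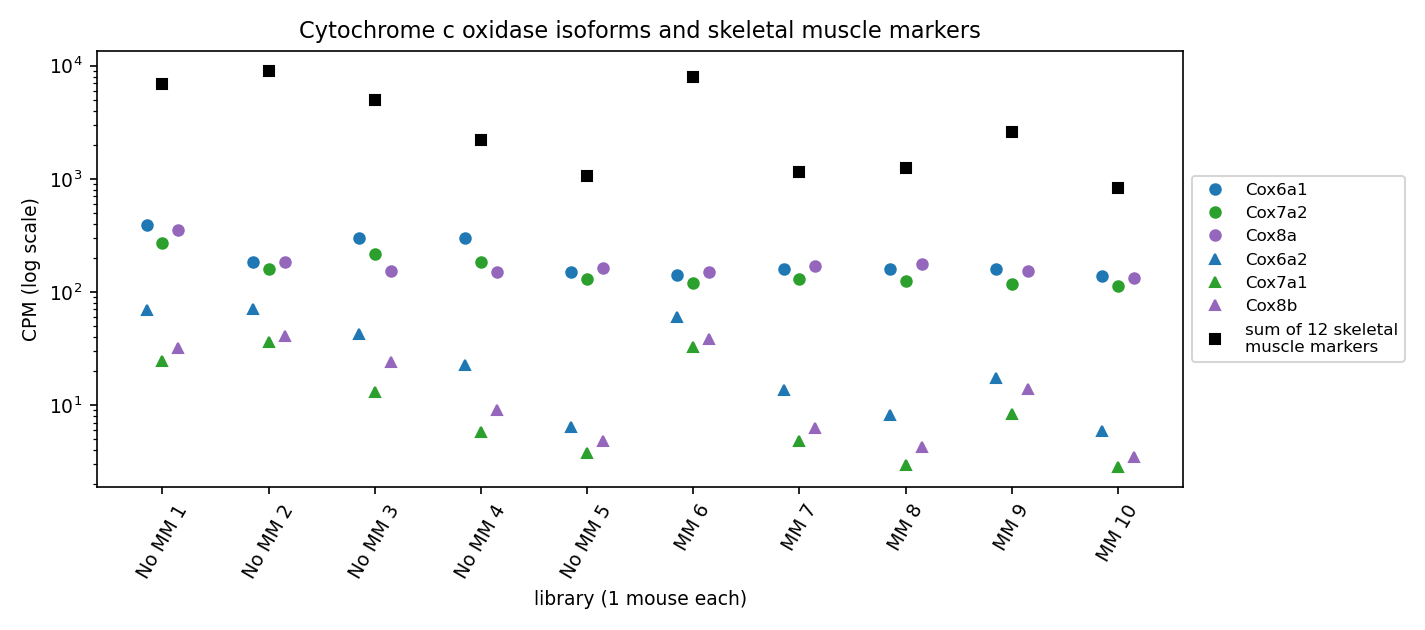
CPM on a log scale in each library of 3 ubiquitous complex IV subunits (circles), their muscle isoforms in the same color (triangles), and the sum of 12 skeletal muscle markers (squares), 1 position per mouse. Cox6a2, Cox7a1 and Cox8b were highest in No MM 1, No MM 2 and MM 6, where the muscle markers summed to 6853, 9044 and 7948 CPM.

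Further isoforms were low. Cox4i2, the form of subunit 4 known from lung and low oxygen, had 20.0, 15.2, 7.24, 5.19 and 11.0 CPM in No MM and 6.13, 7.87, 2.34, 8.57 and 6.76 CPM in MM, with a log2 fold change of −0.89 ± 0.43. Ndufa4l2, known as a gene induced by low oxygen, had 5.88 to 10.7 CPM in No MM and 2.20 to 9.70 CPM in MM, with −0.42 ± 0.37. Cox6b2, the testis form of subunit 6b, was 1 of 2 nuclear members above 0, at 0.47 ± 0.52, and −0.02 without No MM 3 and No MM 4. Ndufa4 was at −0.16 ± 0.22, but 0.04 without No MM 1 and 0.16 with library size alone. Cox7b was at −0.34 ± 0.15, and at 0.02 with library size alone, where the all-gene median was 0.30. The mitochondrially encoded mt-Co1 had 5308, 17680, 12530, 12950 and 9233 CPM in No MM and 17880, 10740, 8411, 10800 and 10140 CPM in MM. Its log2 fold change was 0.01 ± 0.45, and the groups overlapped. For mt-Co2 and mt-Co3, whose sequences are shared with nuclear copies as shown, the values were −0.08 ± 0.28 and −0.32 ± 0.26.

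Complex V, ATP synthase, had 8 of 15 subunits lower at an unadjusted p under 0.05 and 15 below 0, with a median of −0.48. Without No MM 3 and No MM 4, 12 were lower. Of all tested genes, 10.3% were lower in all libraries and 3.37% without No MM 3 and No MM 4. Atp5b, the catalytic beta subunit and the most abundant nuclear member per length at 459 CPM per kb, had 1790, 955, 809, 738 and 785 CPM in No MM and 747, 725, 815, 719 and 715 CPM in MM. No MM 1 stood alone, far above the other 9 libraries, and the log2 fold change was −0.45 ± 0.27, or −0.14 without No MM 1. Atp5e, the epsilon subunit, had 367, 233, 221, 177 and 134 CPM in No MM and 151, 137, 111, 121 and 94.0 CPM in MM. It was at −0.88 ± 0.26 (SE, edgeR adjusted p = 0.314) and at −1.02 in the 8 libraries.

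The genes Atp5g1, Atp5g2 and Atp5g3 encode the same mature membrane ring subunit c and differ in their import sequences. They were at 23.2, 75.3 and 275 CPM per kb of deposited gene length, which was 4715, 753 and 862 bases. Without division by length, Atp5g1 lay above Atp5g2. Their mean CPM was 140.7, 68.85 and 278.3 in No MM and 77.8, 44.62 and 196 in MM. The log2 fold changes were −0.85 ± 0.27, −0.63 ± 0.22 and −0.51 ± 0.21. All 3 had an unadjusted p under 0.05 and overlapping groups. Atp5f1 and Atp5l, subunits of the membrane part and its stalk, were at −0.18 ± 0.20 and −0.27 ± 0.18, and at 0.14 and 0.06 with library size alone, under the all-gene median of 0.30. Of the 76-base windows of Atp5l, 75.7% occur in other annotated transcripts, the highest share among nuclear members, so its counts are uncertain. Atp5s, a coupling factor gene named after its values were seen, was the other nuclear member above 0, at 0.23 ± 0.20. Of the mitochondrially encoded subunits, mt-Atp6 was at −0.17 ± 0.34, and mt-Atp8, with 0.0381 to 1.02 CPM and 1 to 37 counts, at 0.30 ± 0.66. Without No MM 3 and No MM 4 it was at 1.68 ± 0.60 with an unadjusted p under 0.05 in edgeR, the gene counted above as higher in the 8 libraries, and in that comparison No MM 1 and No MM 2 had 1 and 5 counts. In No MM 1 mt-Atp8 was under the level of 3 counts, which was 0.0709 to 0.114 CPM depending on the library.

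None of the mitochondrially encoded complex I subunits reached an unadjusted p under 0.05 in edgeR, and their groups overlapped. mt-Nd1 had 2141, 6014, 5173, 4945 and 3032 CPM in No MM 1 to 5 and 6222, 3032, 2420, 3544 and 3140 CPM in MM 6 to 10, with a log2 fold change of −0.22 ± 0.40. The others were at 0.05 ± 0.41 for mt-Nd2, −0.02 ± 0.39 for mt-Nd4, 0.04 ± 0.39 for mt-Nd5, −0.43 ± 0.35 for mt-Nd3, −0.02 ± 0.44 for mt-Nd4l and −0.31 ± 0.36 for mt-Nd6. Scaled by library size alone, only mt-Nd3 of all 13 was below 0, and the median of the 13 was 0.27, beside 0.30 for all genes. The standard errors of the 13 genes, 0.256 to 0.657, compare with 0.124 to 0.792 for nuclear members, so a shift like the nuclear median of −0.46 could not be told from 0 for a single mitochondrial gene.

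Other genes of energy metabolism were placed beside the members. A list of 49 tested genes covered cytochrome c, coenzyme Q synthesis, assembly of complexes I to V, and carriers and channels of mitochondrial membranes. It also held Cyc1 (−0.51 ± 0.25), a subunit of complex III that the name rule of the members leaves out. Of the 49, 43 had log2 fold changes below 0 and 10 were lower at an unadjusted p under 0.05, with a median of −0.30. In the 8 libraries without No MM 3 and No MM 4, 3 were lower. Sco2, which delivers copper to complex IV, had the smallest p, with 4.14 ± 2.07 CPM (SD) in No MM, 1.69 ± 0.363 CPM in MM and a log2 fold change of −1.29 ± 0.38 (SE). Of 31 genes for maintenance and expression of mitochondrial DNA, 24 were below 0, 2 were lower, and the median was −0.20, or 0.06 in the 8 libraries. Slirp, which stabilizes mitochondrial messengers, was at −0.46 ± 0.19.

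Of 18 citric acid cycle genes, 16 were below 0 and 3 were lower, with a median of −0.26, also 3 in the 8 libraries, and the succinyl-CoA ligase subunit Suclg2 was at −0.61 ± 0.23. Of 23 glycolysis genes, 17 were below 0 and 7 were lower, with a median of −0.37, and the aldolase gene Aldoc was at −1.41 ± 0.52. In the 8 libraries 3 glycolysis genes were lower and Aldoc was at −0.60, with −0.91 without No MM 4 alone. None of these lists had a gene higher at an unadjusted p under 0.05, and the 4 named genes had edgeR adjusted p from 0.314 to 0.332. The counts can be read against the 10.3% of all tested genes that were lower, and those of the 8 libraries against 3.37%. Scaled by library size alone, 20 of the 49, 9 of the 31, 5 of the 18 and 13 of the 23 were below 0, beside 23.8% of all tested genes.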

How the data were processed

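RNA from osteocyte preparations of 10 mice had been made into TruSeq Stranded Total RNA libraries and sequenced as paired ends of 76 bases in 4 lanes. FastQC 0.11.5 and STAR are named in the submitters' processing notes. The counting program, genome build and annotation are not given in the sources used here. The authors deposited whole-number read counts per gene, which were used. The deposited normalized signal, FPKM, log2 fold change and p-value columns, the last ones the authors' own comparison, were not used. Coordinates of all 104 members overlapped those of GENCODE M21 (GRCm38).

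Counts were filtered with filterByExpr (16186 of 22548 genes), scaled by TMM and tested for MM against No MM without covariates in edgeR 4.0.16 (R 4.3.3, quasi-likelihood, Benjamini-Hochberg adjustment over all tested genes, threshold 0.05). Log2 CPM used a prior count of 2, and the edgeR steps were tested on simulated data. DESeq2 1.42.0, other scalings and filters, a covariate of muscle markers, omission of the libraries No MM 3 and No MM 4 and omission of each mouse were alternatives. Offsets for gene length and GC content (20 bins) were chosen after seeing the data. Members and lists were chosen with earlier results of these data known. Named were all mitochondrially encoded genes, the Sdh genes, isoform pairs, per group the 2 largest, 2 smallest and 2 most abundant per kb, and the smallest p of each other list. A gene that this rule names is not reported here. Nothing states that mice came from separate litters or preparation days, so p-values measure the spread between these samples. The level taken as the lowest detectable was 3 counts.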

Additional observations from a re-analysis of the deposited data

Results flagged for a closer look

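Within each group of 5 mice, a value was listed when its gap to the nearest other mouse, divided by the group's range, exceeded Dixon's 95% critical value of 0.71. Of 154 groups of values examined, 8 were listed, and chance alone gives about 1 in 20, or 7.7.

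Library sums gave 2 of these. The mitochondrial share of counts in MM 6 was 5.21%, with 2.06% to 2.89% in the other MM mice, and the log2 ratio of mitochondrial to nuclear counts in No MM 1 was −0.497, with 1.29 to 1.77 in the other No MM mice. In log2 CPM, Cox8a was 8.48 in No MM 1, with 7.24 to 7.51 in the others of its group. MM 6 was high for Cox6c (7.67, with 7.19 to 7.28 in the other MM mice), for Ndufaf5 (3.92, with 3.18 to 3.38) and for mt-Nd6 (3.66, with 2.53 to 2.78). MM 8 was low for Cox4i2 (1.26, with 2.63 to 3.11 in the other MM mice) and for Ndufa4l2 (1.17, with 2.72 to 3.29).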

How the results depend on the processing

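No paired analysis was possible because the labels number the mice 1 to 5 and 6 to 10. The limits are 5 mice per group, unsorted cells, No MM 1, which set several values, and sequence shared with nuclear copies. The number of genes called at an adjusted p under 0.05 was 0 in edgeR and 31 higher and 176 lower in DESeq2. The count of 46 nuclear members lower at an unadjusted p under 0.05 became 4 with library size alone (and 1 higher), 19 with the muscle covariate and 30 with gene length offsets. It ran from 28 to 59 with 1 mouse left out. Of these alternatives, the share of all tested genes lower at that p is given above only for the muscle covariate. The median of the nuclear members became −0.111 with library size alone. With gene length offsets, their median minus the all-gene median was −0.287, against −0.428 in the main comparison. The mitochondrially encoded members below 0, 9 of 13, became 1 with library size alone, 4 without No MM 3 and No MM 4, 4 with gene length offsets and 5 to 12 with 1 mouse left out, when 0 to 1 was lower at an unadjusted p under 0.05. In the 8 libraries 1 was higher. The causes were not tested. With 1 mouse left out the medians ran from −0.566 to −0.309 (nuclear) and from −0.327 to 0.035 (mitochondrially encoded), and the group difference in nuclear share from −0.169 to 0.0203 percentage points.

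No gene was called at an adjusted p under 0.05 in any edgeR setting, so among those fits only the direction could change. Of 1384 fold changes of single genes under alternatives, 1300 kept their direction and side of the threshold and 84 had the opposite direction. These were mt-Nd4 (0.009) and mt-Nd4l (0.000105) in DESeq2, mt-Nd4 (0.004) with RLE factors, mt-Nd4 (0.003) with at least 10 counts in every library. They were also Ndufaf6 (0.032), mt-Atp6 (0.041), mt-Co2 (0.13), mt-Cytb (0.031), mt-Nd4 (0.10) and mt-Nd4l (0.074) with gene length offsets. Others were Atp5f1 (0.14), Atp5l (0.058), Cox6c (0.18), Cox7b (0.017), Ndufa4 (0.16), Ndufaf5 (0.10), Ndufaf6 (0.18), Ndufb10 (0.018), Ndufb7 (0.10), Ndufs1 (0.23), Ndufv2 (0.034), Sdha (0.070), Sdhd (0.053), Uqcrb (0.10), Uqcrc1 (0.048), mt-Atp6 (0.20), mt-Co2 (0.27), mt-Co3 (0.030), mt-Cytb (0.20), mt-Nd1 (0.13), mt-Nd4 (0.32), mt-Nd4l (0.30) and mt-Nd6 (0.056) with library size alone. Next came Cox7a1 (0.15), Cox8b (0.068), Ndufa4 (0.014), mt-Atp8 (−0.015), mt-Co2 (0.040), mt-Cytb (0.019), mt-Nd4 (0.15) and mt-Nd4l (0.14) with the muscle covariate. To these were added mt-Co1 (−0.13), mt-Nd2 (−0.075) and mt-Nd5 (−0.066) with GC offsets. There were further mt-Nd4 (0.020) and mt-Nd4l (0.011) with upper-quartile factors. The last were Cox6b2 (−0.022), mt-Atp6 (0.21), mt-Co2 (0.11), mt-Cytb (0.045), mt-Nd4 (0.12) and mt-Nd4l (0.11) without No MM 3 and No MM 4. With 1 mouse left out, the direction changed in the ranges of Ndufa4 (−0.26 to 0.035), Ndufb10 (−0.44 to 0.022), Ndufb7 (−0.34 to 0.12), Uqcrc1 (−0.42 to 0.12), mt-Atp6 (−0.36 to 0.015), mt-Atp8 (−0.013 to 0.85), mt-Co1 (−0.20 to 0.22), mt-Co2 (−0.26 to 0.035), mt-Cytb (−0.44 to 0.013), mt-Nd2 (−0.31 to 0.23), mt-Nd4 (−0.32 to 0.17), mt-Nd4l (−0.33 to 0.20) and mt-Nd5 (−0.23 to 0.18).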
